A study of Mus musculus with 22 samples.

Results

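The subunits of the cytokines IL-12 and IL-23 were followed in dendritic cells (DCs) of the mouse pancreas through all probe sets that name Il12a, Il12b, Il23a or Ebi3 alone, whatever their values. This gave 5 probe sets for 4 of the 18193 genes that the arrays measured with a probe set of their own: 1425454_a_at for Il12a, 1419530_at and 1449497_at for Il12b, 1419529_at for Il23a and 1449222_at for Ebi3. The cells were CD11c+CD8α- DCs sorted from the CD45-enriched pancreas cells of female mice 5 weeks old, either of the NOD strain, which develops autoimmune diabetes spontaneously and had not yet done so at this age, or of the control strain C57BL/6. RNA was measured on 22 Affymetrix arrays of the mouse genome. There were 4 arrays of NOD cells cultured for 18 h with LPS, 4 of NOD cells cultured with PBS and 3 of NOD cells at steady state, which were not cultured, against 3 of C57BL/6 cells with LPS, 4 with PBS and 4 at steady state. LPS is a bacterial cell wall lipid that activates DCs through TLR4. Each sample pooled 10 pancreases, so that an array stands for a pool and not for a mouse.

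IL-12 and IL-23 are heterodimers that share a chain. Il12a encodes p35, which pairs with p40, the product of Il12b, to form IL-12, while Il23a encodes p19, which pairs with the same p40 to form IL-23. Ebi3 encodes a p40-like chain that forms IL-27 with the p28 protein and IL-35 with p35. DCs and macrophages make IL-12 when microbial products reach them, and it drives T cells and NK cells to make interferon gamma, whereas IL-23 maintains T cells that make IL-17. The heterodimers IL-12 and IL-23 form only where both of their chains are made, and RNA levels do not show how much protein was made.

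The promoters of Il12a, Il12b and Ebi3 are shown because Il12a and Ebi3 rose with LPS in both strains while neither Il12b probe set passed the test there. Each window of 300 bases lies around the annotated start, mostly before it, on the plus strand, in the RefSeq table of build GRCm38.p6, which gave 4 windows for 3 of the 4 genes: chr3:68690394-68690693 and chr3:68691174-68691473 for the 2 starts of Il12a, chr11:44399813-44400112 for Il12b and chr17:55952373-55952672 for Ebi3. Il23a has no entry in this table. Both strands were searched for the NF-kB consensus, the ISRE core GAAANNGAA, the AP-1 motif TGANTCA and the C/EBP motif TTNNGNAAT, and matches are in capitals. The first window of Il12a is shown.
Il12a: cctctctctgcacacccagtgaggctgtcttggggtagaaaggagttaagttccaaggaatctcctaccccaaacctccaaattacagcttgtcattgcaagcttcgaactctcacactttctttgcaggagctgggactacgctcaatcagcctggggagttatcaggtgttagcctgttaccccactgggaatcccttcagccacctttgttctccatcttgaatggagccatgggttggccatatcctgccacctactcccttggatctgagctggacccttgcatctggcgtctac
Il12b: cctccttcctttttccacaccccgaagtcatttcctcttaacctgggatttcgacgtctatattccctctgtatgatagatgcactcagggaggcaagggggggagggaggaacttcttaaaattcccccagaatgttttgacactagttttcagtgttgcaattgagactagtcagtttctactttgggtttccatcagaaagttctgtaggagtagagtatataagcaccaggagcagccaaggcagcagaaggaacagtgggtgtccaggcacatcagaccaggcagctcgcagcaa
Ebi3: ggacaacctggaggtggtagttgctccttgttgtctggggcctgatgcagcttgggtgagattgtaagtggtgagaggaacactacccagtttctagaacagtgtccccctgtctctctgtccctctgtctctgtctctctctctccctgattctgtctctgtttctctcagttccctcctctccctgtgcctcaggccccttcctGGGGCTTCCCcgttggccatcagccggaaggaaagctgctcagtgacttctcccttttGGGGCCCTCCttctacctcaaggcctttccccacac
Ebi3 held 2 matches to the NF-kB consensus, at -44 to -35, which matches on both strands, and at 15 to 24, counted from the start site. Neither Il12a window and not the Il12b window held any of the 4 motifs as spelled. Of 32851 promoter windows of this length, 8.46% held the NF-kB consensus, 8.56% the ISRE core, 7.81% the AP-1 motif and 11.5% the C/EBP motif. A match is a description of the letters and not a site shown to bind a factor.

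The values are log2 expression after RMA normalization, so a difference of 1 is a doubling. The medians of the arrays lay between 7.63 and 7.68. The DC markers (8 genes, with Itgax, Flt3 and Zbtb46 among them) averaged 9.79 to 10.08 on cultured NOD arrays and 10.17 to 10.32 on cultured C57BL/6 arrays, and 11.16 to 11.20 on the NOD steady state arrays and 11.34 to 11.42 on those of C57BL/6. All of the listed DC markers lay above the lower quartile of the arrays in every group, and so did the measured markers of acinar, NK, T, B, plasmacytoid and CD8α+ cells, including Cd8a itself at 7.78 in NOD and 7.56 in C57BL/6 at steady state. In bulk samples, fewer cells of a type and less RNA per cell cannot be told apart. The 45037 probe sets of the arrays were compared with limma, and a change counts as called where the p adjusted after Benjamini and Hochberg is under 0.1. The p-values measure the spread between pools.

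Il12a, the p35 chain that sets IL-12 apart from IL-23, had the largest response to LPS of the 5 probe sets in both strains. In NOD DCs it measured 9.44, 9.77, 9.50 and 9.83 with LPS, against 7.87, 7.82, 8.59 and 8.06 with PBS. In C57BL/6 DCs it measured 9.93, 9.45 and 9.37 with LPS, against 7.60, 8.27, 7.35 and 7.52 with PBS. Every LPS array of a strain lay above every PBS array of that strain. The log2 difference was 1.55 in NOD (SE 0.17, limma adjusted p = 0.00147), a 2.93-fold rise, and 1.90 in C57BL/6 (SE 0.23, limma adjusted p = 0.0180), a 3.74-fold rise. The response differed between the strains by -0.35 (95% interval -0.99 to 0.28), which did not pass the test.

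Culture alone also raised Il12a. At steady state it measured 7.13, 6.94 and 7.11 in NOD, against 6.92, 7.05, 6.93 and 6.81 in C57BL/6. All of the PBS arrays lay above these. PBS culture exceeded steady state by 1.03 in NOD (SE 0.18, limma adjusted p = 0.000412) and by 0.76 in C57BL/6 (SE 0.17, limma adjusted p = 0.00242). The levels therefore came in the same order in both strains, with LPS above PBS and PBS above steady state, and no overlap between neighbouring conditions of a strain. Between the strains the ranges overlapped in each condition, and the log2 differences, NOD minus C57BL/6, were 0.05 after LPS (95% interval -0.32 to 0.42), 0.40 after PBS (-0.07 to 0.88) and 0.14 at steady state (-0.08 to 0.36), none of which passed the test.

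**Figure D1:**
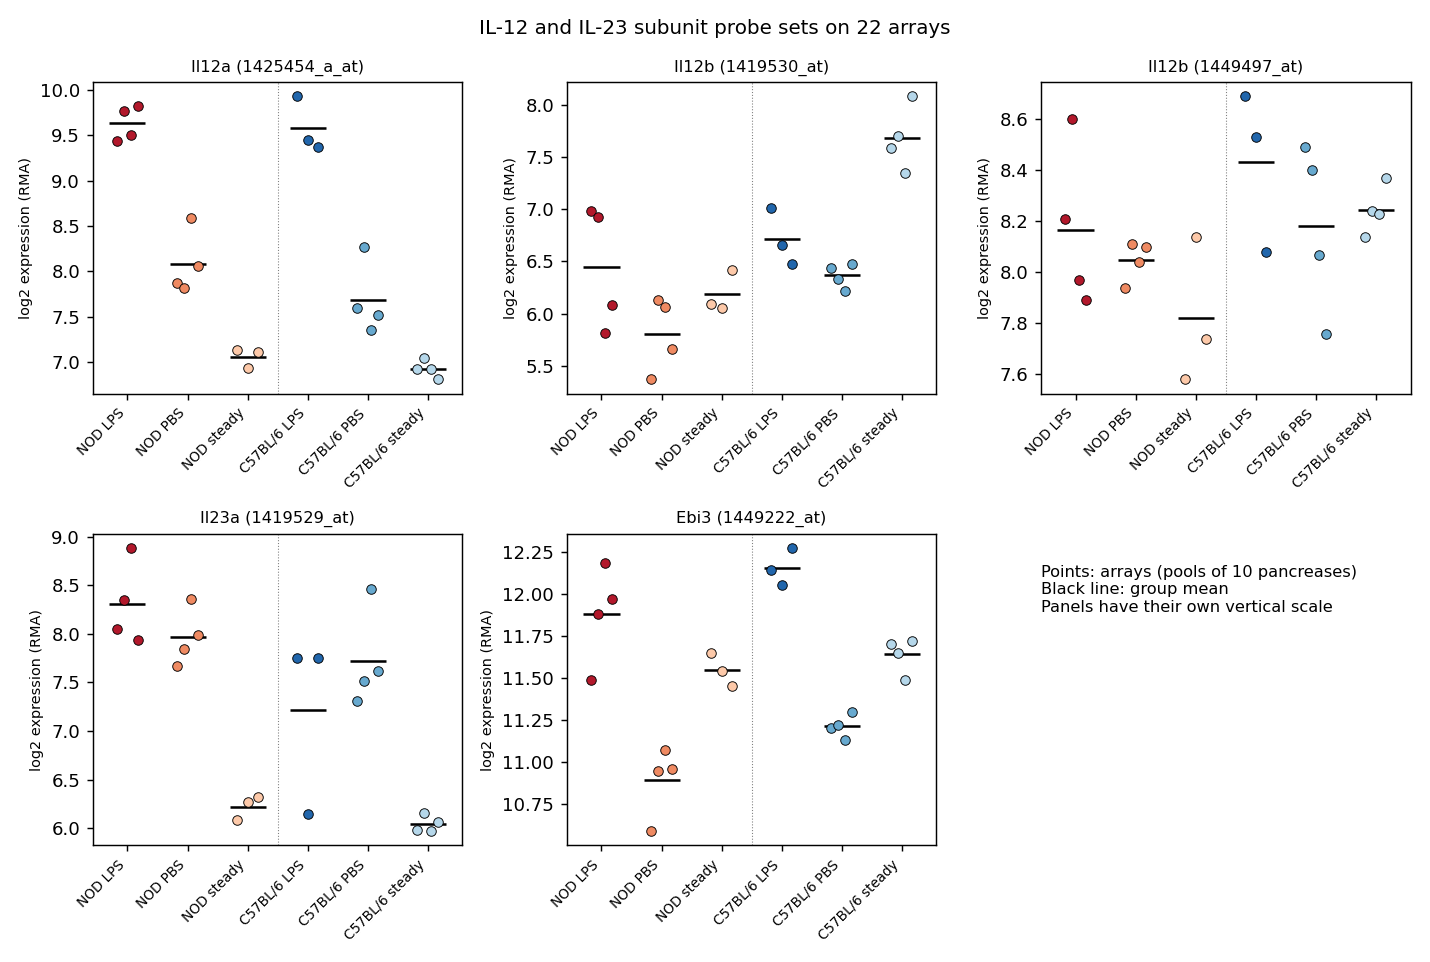
Log2 expression (vertical axis, RMA, own scale per panel) of the 5 probe sets on 22 arrays, by strain and condition (horizontal axis), with 1 point per array and a line at the group mean. Il12a stands at 9.37 to 9.93 on all LPS arrays and at 6.81 to 7.13 on all steady state arrays, while Il12b 1419530_at is highest on the C57BL/6 steady state arrays.

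Il12b, the p40 chain shared by IL-12 and IL-23, was lower in NOD DCs at steady state, most clearly by 1419530_at. This probe set measured 6.09, 6.05 and 6.42 in NOD, against 7.59, 7.70, 7.35 and 8.08 in C57BL/6. The C57BL/6 arrays lay above all others of the series for this probe set. The log2 difference was -1.50 (SE 0.17, limma adjusted p = 0.000199), and it stayed between -1.61 and -1.36 and past the threshold with each array left out in turn. The NOD values lay around the lower quartile of their arrays, 6.08 to 6.19. They were not set against a background level, and the size of this difference is that of the RMA values, which may understate the difference in RNA. The second probe set, 1449497_at, measured 7.58, 8.14 and 7.74 in NOD, against 8.14, 8.24, 8.23 and 8.37 in C57BL/6. Its groups touch at 8.14, and its log2 difference of -0.43 (SE 0.13, limma adjusted p = 0.0737) passed the test. That call was lost without any 1 array except NOD array 4, with adjusted p between 0.109 and 0.214 in those 6 fits and a difference of -0.31 without NOD array 1, and also with the spread of all 22 arrays (adjusted p = 0.184).

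The 2 Il12b probe sets differed more in culture. In PBS culture, 1419530_at measured 5.37, 6.13, 6.06 and 5.66 in NOD, against 6.44, 6.33, 6.22 and 6.48 in C57BL/6, with no overlap and a log2 difference of -0.56 (SE 0.17, limma adjusted p = 0.0699). This call was lost in 5 of 8 fits with 1 array left out: without NOD array 1 (-0.42, adjusted p = 0.144) or 4, or without C57BL/6 array 1, 2 or 4 (adjusted p up to 0.166 in the 5). On the same arrays 1449497_at measured 7.94, 8.11, 8.04 and 8.10 in NOD, against 8.49, 8.40, 8.07 and 7.76 in C57BL/6. The C57BL/6 values enclosed those of NOD, and the difference was -0.14 (95% interval -0.48 to 0.21).

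After LPS the strains overlapped on both Il12b probe sets. Of these, 1419530_at measured 6.98, 6.93, 5.81 and 6.08 in NOD, against 7.01, 6.66 and 6.48 in C57BL/6. The other, 1449497_at, measured 8.21, 8.60, 7.97 and 7.89 in NOD, against 8.69, 8.53 and 8.08 in C57BL/6. NOD arrays 1 and 2 were higher than NOD arrays 3 and 4 on both. LPS exceeded PBS by 0.65 (95% interval 0.06 to 1.24, limma adjusted p = 0.313) in NOD and by 0.35 (0.01 to 0.68, limma adjusted p = 0.443) in C57BL/6 on 1419530_at. On 1449497_at the LPS effect was 0.12 (-0.21 to 0.45) in NOD and 0.25 (-0.21 to 0.71) in C57BL/6, so that no Il12b probe set passed the test for LPS in either strain.

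In C57BL/6, 1419530_at was lower after PBS culture than at steady state, with a log2 difference of -1.31 (SE 0.15, limma adjusted p = 1.06e-05), with no overlap between conditions. In NOD the difference was -0.38 (SE 0.19, limma adjusted p = 0.0980), the conditions overlapped, and the call was lost in 4 of 7 fits with 1 array left out, without NOD PBS array 1 or 4 or without NOD steady state array 1 or 6 (adjusted p up to 0.321, without the last of these). The difference of these culture effects, NOD minus C57BL/6, was 0.93 (SE 0.25, limma adjusted p = 0.0411). It was no longer called with arrays of the same number as a block (0.63, adjusted p = 0.353), without NOD steady state array 4 (0.86, adjusted p = 0.122) or with the spread of all 22 arrays (adjusted p = 0.125). The block fit rests on the 2 array numbers that both conditions share in each strain. Its loss of the call therefore cannot tell pairing from the use of fewer arrays. The difference of 0.93 also contains the strain difference at steady state, where the NOD arrays already lay around the lower quartile, so a fall in NOD as large as that in C57BL/6 may not have been measurable there, which was not tested. For 1449497_at, culture changed the level by 0.23 (95% interval -0.09 to 0.54) in NOD and -0.06 (-0.39 to 0.27) in C57BL/6, and of the fits with 1 array left out, the NOD effect was called in that without NOD steady state array 4 (0.39, adjusted p = 0.0245).

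The 2 probe sets are annotated to the same Il12b transcript, yet over the 22 arrays their values correlated at r = 0.46, as a description of arrays that share groups. Group means of 1419530_at spanned 1.87 and those of 1449497_at 0.61. 1419530_at lay under the lower quartile of its array, between 6.03 and 6.36, on 4 of 4 NOD PBS arrays, 2 of 4 NOD LPS arrays, 1 of 3 NOD steady state arrays and 1 of 4 C57BL/6 PBS arrays, where it may be near background, which was not tested. 1449497_at lay above the quartile on every array.

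**Figure D2:**
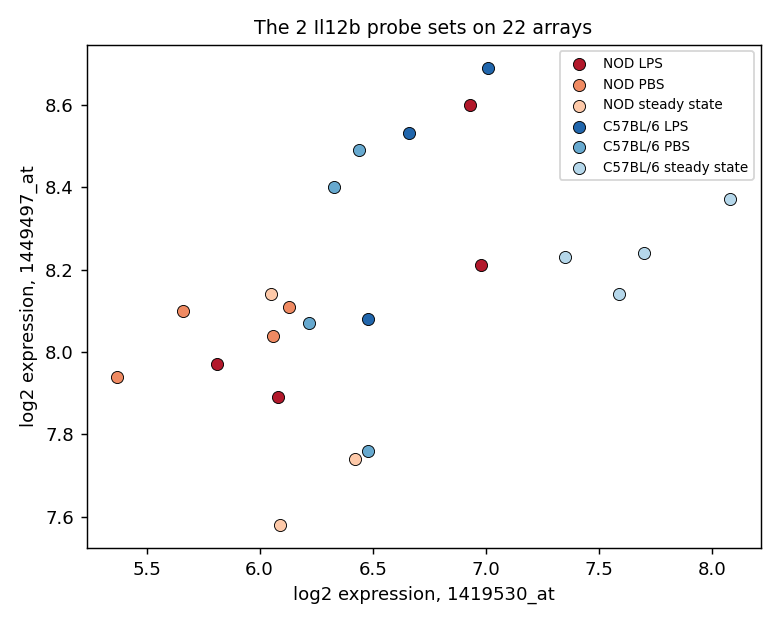
Log2 expression (RMA) of the Il12b probe sets 1419530_at (horizontal axis) and 1449497_at (vertical axis), 1 point per array, coloured by strain and condition. The 4 C57BL/6 steady state arrays lie apart on the horizontal axis, at 7.35 to 8.08, and within the range of the other arrays on the vertical axis, at 8.14 to 8.37.

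Il23a, the p19 chain of IL-23, rose in culture and was not called for LPS. In NOD it measured 7.67, 7.84, 8.36 and 7.99 with PBS, against 6.08, 6.27 and 6.32 at steady state. In C57BL/6 it measured 7.31, 7.51, 8.46 and 7.62 with PBS, against 5.98, 6.16, 5.97 and 6.06 at steady state. All PBS arrays lay above all steady state arrays of their strain. The steady state values lay around the lower quartile of their arrays, which was 6.08 to 6.19 for NOD, against 6.03 to 6.09 for C57BL/6, and were not tested against background, so the rises below are those of the RMA values and may understate the change in RNA. PBS culture exceeded steady state by 1.74 in NOD (SE 0.16, limma adjusted p = 2.88e-06) and by 1.68 in C57BL/6 (SE 0.21, limma adjusted p = 2.08e-05). These measured rises differed between the strains by 0.06 (95% interval -0.55 to 0.66).

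With LPS, Il23a measured 8.05, 8.35, 8.88 and 7.94 in NOD, against 7.75, 6.15 and 7.75 in C57BL/6. The NOD arrays lay above all C57BL/6 arrays, and C57BL/6 array 3 stood alone at a level of the steady state arrays. The log2 difference between the strains was 1.09 (SE 0.37, limma adjusted p = 0.128) and did not pass the test, and without C57BL/6 array 3 it was 0.56 (adjusted p = 0.295). It was called without the dimmer 50% of probe sets (adjusted p = 0.0864) and with the spread of all 22 arrays (adjusted p = 0.0238), both with that array included. LPS exceeded PBS by 0.34 in NOD (95% interval -0.11 to 0.79) and differed from it by -0.51 in C57BL/6 (-1.40 to 0.39), or by 0.03 there without array 3. The difference of the LPS effects was 0.85 (95% interval -0.17 to 1.86), and 0.31 without that array. At steady state the strains differed by 0.19 (-0.04 to 0.41) and after PBS by 0.24 (-0.27 to 0.76), neither past the threshold. Il23a lay under the lower quartile of the array on 2 of 4 C57BL/6 steady state arrays and on C57BL/6 LPS array 3.

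Ebi3, the chain of IL-27 and IL-35, fell in culture and rose with LPS. It measured 11.49, 11.88, 12.18 and 11.97 in NOD with LPS, against 10.59, 10.95, 11.07 and 10.96 with PBS. In C57BL/6 it measured 12.14, 12.05 and 12.27 with LPS, against 11.20, 11.22, 11.13 and 11.30 with PBS. The LPS arrays of each strain lay above its PBS arrays. LPS exceeded PBS by 0.99 in NOD (SE 0.16, limma adjusted p = 0.00895), 1.98-fold, and by 0.94 in C57BL/6 (SE 0.12, limma adjusted p = 0.0198), 1.92-fold, and the 2 effects differed by 0.05 (95% interval -0.38 to 0.48).

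At steady state Ebi3 measured 11.65, 11.54 and 11.45 in NOD and 11.70, 11.65, 11.49 and 11.72 in C57BL/6, above all PBS arrays of both strains. The change with PBS culture was -0.66 in NOD (SE 0.14, limma adjusted p = 0.00163) and -0.43 in C57BL/6 (SE 0.099, limma adjusted p = 0.00260). Ebi3 thus moved in the opposite direction to Il12a and Il23a in culture and in the same direction as Il12a with LPS. Between the strains it did not pass the test in any condition. The log2 difference was -0.27 after LPS (95% interval -0.63 to 0.09), -0.32 after PBS (-0.59 to -0.05, limma adjusted p = 0.180), where all NOD arrays lay below all C57BL/6 arrays, and -0.09 at steady state (-0.31 to 0.13).

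Set against all probe sets, the strain differences of the subunits came to 2 of 5 probe sets at steady state, both of Il12b, where 15.0% of all probe sets were called. After PBS culture 1 of 5 was called, beside 9.87% of all probe sets. After LPS culture 0 of 5 were called, beside 9.91% of all, while Il23a had an unadjusted p of 0.0147. With arrays of the same number as a block, 6826 in place of 4447 probe sets were called after PBS culture and the calls on the 5 stayed as they were. The median difference over all probe sets was 0.039 at steady state, 0.029 after PBS and 0.013 after LPS.

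**Figure D3:**
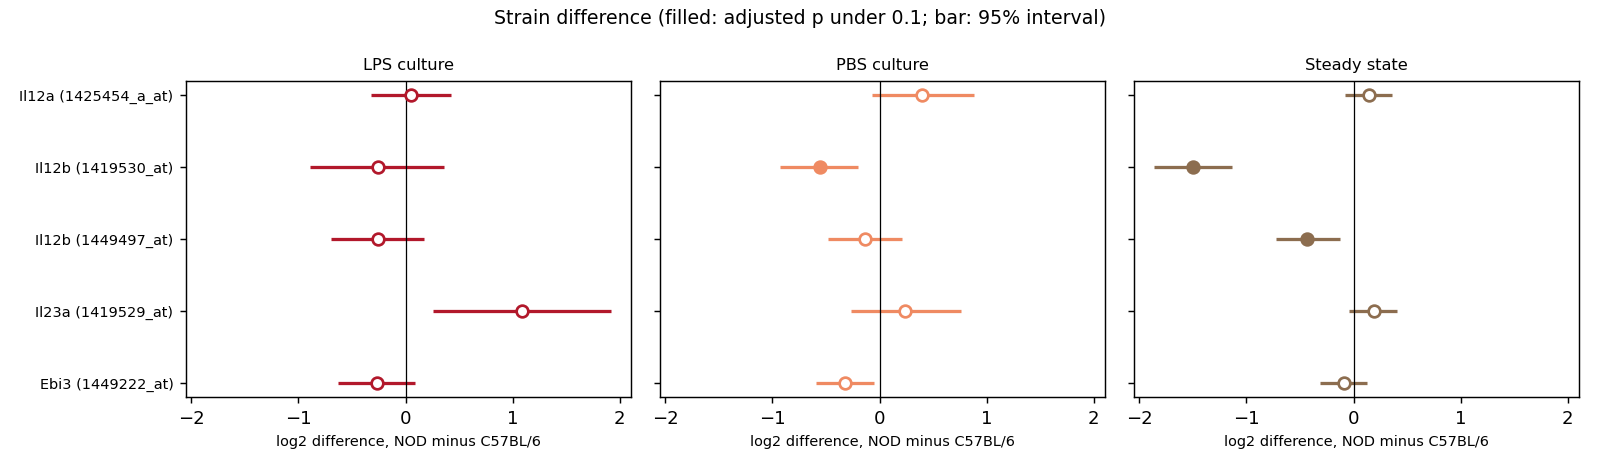
Log2 difference between NOD and C57BL/6 (horizontal axis, NOD minus C57BL/6) of the 5 probe sets (vertical axis) after LPS culture, after PBS culture and at steady state, with 95% intervals and filled points for an adjusted p under 0.1. Only Il12b is called, at -1.50 and -0.43 at steady state and at -0.56 after PBS, and Il23a after LPS has the widest interval, 0.26 to 1.92.

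For LPS against PBS, 2 of 5 probe sets were called in NOD, those of Il12a and Ebi3, beside 3.76% of all probe sets, and the same 2 of 5 in C57BL/6, beside 1.48%. Each strain's LPS arrays were set against its own PBS arrays, and the PBS arrays also enter the culture comparisons. Of all probe sets, 58 had a larger rise than Il12a in NOD and 14 in C57BL/6, and 207 and 212 had a larger rise than Ebi3. With arrays of the same number as a block, 4282 in place of 1693 probe sets were called for LPS in NOD, Il12a and Ebi3 among them. The strain by LPS interaction was called for 0 of 5 probe sets, none of which had an unadjusted p under 0.05, and for 0.0244% of all (11 probe sets, 18 with the block).

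For PBS culture against steady state, 4 of 5 probe sets were called in each strain, all but Il12b 1449497_at. The calls made up 67.1% of all probe sets in NOD and 72.7% in C57BL/6, so a called change in culture was the rule and not the exception. The rise of Il23a was exceeded by 1336 probe sets in NOD and 1299 in C57BL/6. The strain by culture interaction was called for 1 of 5 probe sets, Il12b 1419530_at, beside 6.80% of all (3063 probe sets, 649 with the block, which here rests on 2 array numbers per strain).

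**Figure D4:**
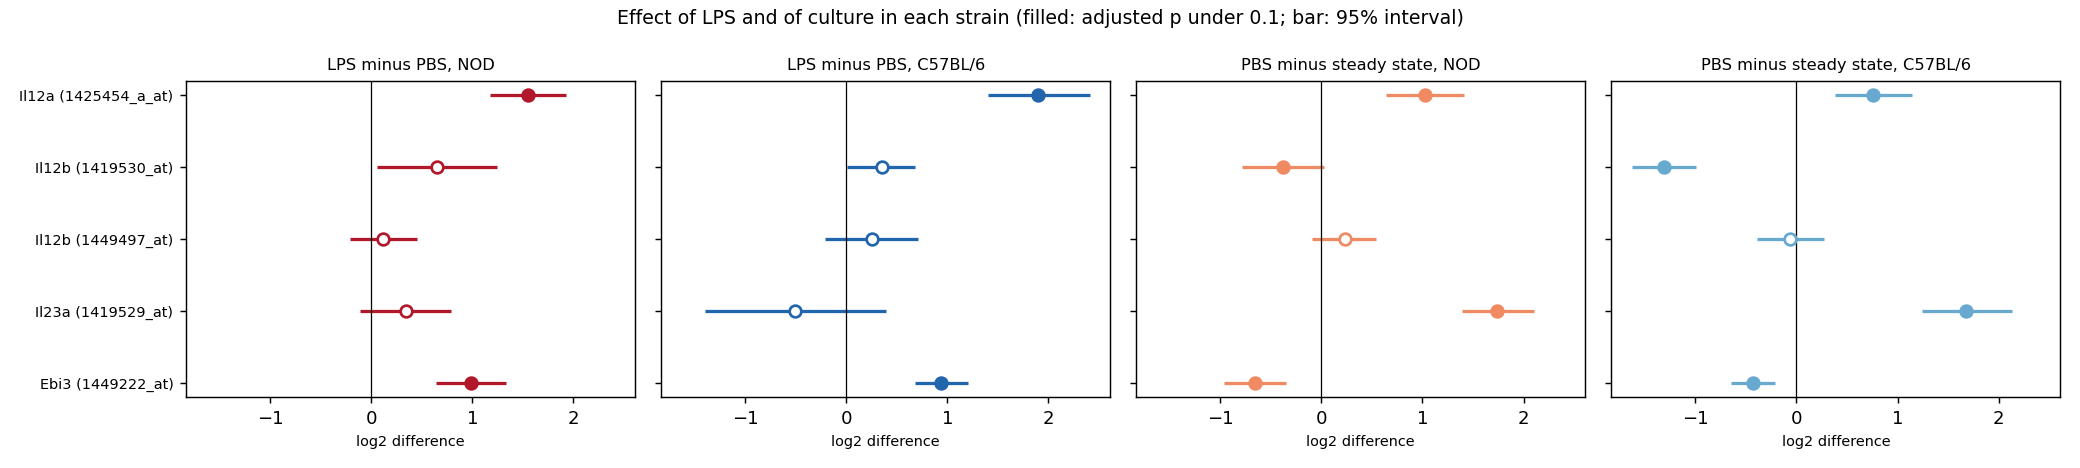
Log2 difference (horizontal axis) of the 5 probe sets (vertical axis) for LPS minus PBS and for PBS culture minus steady state in each strain, with 95% intervals and filled points for an adjusted p under 0.1. Il12a and Ebi3 are called for LPS in both strains, Il12a at 1.55 in NOD and 1.90 in C57BL/6 and Ebi3 at 0.99 and 0.94, whereas Ebi3 lies below 0 for culture, at -0.66 and -0.43.

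Markers of other cells and states moved with some of these results. Culture raised Ccr7, the chemokine receptor that guides mature DCs to lymph nodes, by 4.22 in NOD (limma adjusted p = 2.14e-09) and by 4.13 in C57BL/6 (5.24e-10), and Itgax, which encodes CD11c, fell, with a log2 difference of -1.96 in NOD (3.22e-07) and -2.29 in C57BL/6 (2.84e-09). Of the 4 mature DC markers, 3 rose in NOD, and 3 rose and 1 fell in C57BL/6. Of the 8 DC markers, 4 fell in NOD, and 3 rose and 5 fell in C57BL/6. With all probe sets of a gene averaged, 6 DC markers fell in NOD, and 1 rose and 6 fell in C57BL/6. Of all genes, 41.6% were called higher and 30.0% lower in NOD, and 44.6% higher and 32.3% lower in C57BL/6. Of the 4 measured acinar cell markers, all fell in culture in both strains, where 30.0% of all genes were called lower in NOD and 32.3% in C57BL/6, each gene by its brightest probe set, with a median log2 difference of -2.63 in NOD and -2.68 in C57BL/6, and their mean level at steady state was 12.89 to 13.87 in NOD and 13.32 to 13.75 in C57BL/6. At steady state, where Il12b was lower in NOD, 4 of 5 measured NK cell markers were lower in NOD as well, with a mean level over the list of 8.57 to 8.88 in NOD and 9.63 to 9.88 in C57BL/6, beside 8.35% of all genes called lower. Of the 8 DC markers, 4 were lower in NOD there, Itgax among them (a difference of -0.43), or 3 lower and 1 higher with all probe sets of a gene averaged. Of 7 macrophage markers, 2 were lower, Cd5l (-1.97) and Marco (-1.41), and 1 was higher, with a mean level of 11.92 to 12.41 in NOD and 12.65 to 12.88 in C57BL/6. With all probe sets of a gene averaged, 4 of these 7 were lower and 1 was higher. Of 4 plasmacytoid DC markers, 2 were higher in NOD, Siglech (1.67) and Ccr9 (0.97), beside 6.87% of all genes, with a mean level of 11.13 to 11.29 in NOD and 10.46 to 10.64 in C57BL/6.

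The LPS comparisons, in which Il12a and Ebi3 rose, also moved some marker lists. Of 3 measured neutrophil markers, 2 rose with LPS in NOD, beside 1.93% of all genes, and 1 in C57BL/6, beside 0.945%. S100a8, a calcium-binding protein abundant in neutrophils, rose by 1.83 in NOD (limma adjusted p = 0.00240) and by 1.59 in C57BL/6 (0.0456). The mean level of the neutrophil list was 11.11 to 11.77 with LPS, against 10.24 to 11.80 with PBS, in NOD, and 12.49 to 12.70 with LPS, against 11.33 to 12.22 with PBS, in C57BL/6. Of the 7 macrophage markers, 3 fell in NOD, beside 2.46% of all genes called lower, and 1, Mertk, in C57BL/6, beside 0.868%. The mean level of the macrophage list was 11.42 to 11.51 with LPS, against 11.58 to 12.07 with PBS, in NOD, and 11.42 to 11.70 with LPS, against 11.77 to 12.27 with PBS, in C57BL/6. The part of these markers in the results on the subunits was not tested.

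The genes whose values most resembled each subunit over the 22 arrays are given with Pearson's r, as a description over arrays that share strains and conditions. For Il12a they were U90926 (r = 0.982), Il1b, the inflammatory cytokine IL-1 beta (0.959), and Urah (0.957). For Il23a they were Mrnip (0.949), Pdgfrl (0.949) and Fbxo28 (0.939), and for Ebi3 Steap4, a metalloreductase (0.855), Gramd1a (0.844) and Serp1, a protein of the endoplasmic reticulum (0.825). For Il12b by 1449497_at, they were Tcea3 (0.792), Gtse1 (0.790) and Ncs1 (0.785). For 1419530_at, a comparison added after the values were seen, they were the mitotic genes Bub1b (0.918) and Ckap2 (0.913) and the DNA repair gene Neil3 (0.896). The Il12b probe sets thus shared none of their 3 nearest genes.

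Of 35 other genes of the pathway, 29 had a probe set of their own, and Il27, which encodes p28, and Il23r were among the 6 without one. Among 4 measured receptor chains, Il12rb2, the signalling chain of the IL-12 receptor, was higher in NOD at steady state, at a mean of 9.12 in NOD and 8.04 in C57BL/6, a log2 difference of 1.08 (SE 0.11, limma adjusted p = 0.000137). After PBS culture it was lower in NOD, at 9.67 in NOD and 10.28 in C57BL/6, a difference of -0.60 (limma adjusted p = 0.0453) that was lost without NOD array 3 or C57BL/6 array 2 (adjusted p up to 0.115). It rose in culture by 0.56 in NOD (limma adjusted p = 0.0145) and by 2.24 in C57BL/6 (1.53e-08), and the interaction was -1.68 (SE 0.21, limma adjusted p = 8.37e-05). Il12rb1, the chain shared by the IL-12 and IL-23 receptors, rose in culture by 0.93 in NOD and 1.35 in C57BL/6, and Il27ra fell by 0.94 in NOD and 0.71 in C57BL/6, all past the threshold. Il6st, the other measured chain, was higher in NOD at steady state by 0.52 (limma adjusted p = 0.0274) and differed by -0.42 after PBS (0.0911). With its probe sets averaged, the PBS difference was -0.21 (0.243). Culture changed Il6st by -0.60 in NOD (0.00622) and by 0.33 in C57BL/6 (0.0170), or 0.07 there with probe sets averaged (0.459). Its strain by culture interaction was -0.93 (SE 0.19, limma adjusted p = 0.00642).

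Of 4 measured signal transducers, Stat4, which carries the IL-12 signal, was lower in NOD at steady state, with means of 8.32 in NOD and 8.95 in C57BL/6 (a difference of -0.63, SE 0.13, limma adjusted p = 0.0112). It rose in culture by 2.50 in NOD (3.24e-08) and 2.24 in C57BL/6 (5.81e-08). Jak2 and Stat3 rose in culture in both strains as well. By its brightest probe set no transducer was called for LPS in either strain, while with all probe sets of a gene averaged Jak2 was called in NOD (0.41, limma adjusted p = 0.0337) and had 0.40 in C57BL/6 (0.184).

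Of 8 measured activators of subunit transcription, 6 rose and 1 fell in culture in NOD, and 5 rose and 2 fell in C57BL/6, or 6 and 1 there with all probe sets of a gene averaged. Of all genes, each by its brightest probe set, 41.6% were called higher and 30.0% lower in NOD, and 44.6% higher and 32.3% lower in C57BL/6. Rel, which encodes the NF-kB subunit c-Rel, rose by 1.97 in NOD (limma adjusted p = 2.07e-06) and by 1.88 in C57BL/6 (1.46e-07). By its brightest probe set, Irf8 had a culture difference of -0.58 in NOD (0.00114) and -0.82 in C57BL/6 (0.000140), but with its probe sets averaged the difference was -0.24 in NOD (0.0657) and -0.12 in C57BL/6 (0.346), so that the C57BL/6 call rests on the brightest probe set. The 1 activator called for LPS was Nfkbiz, which encodes the nuclear NF-kB cofactor IκBζ, higher by 0.91 in NOD (SE 0.12, 0.00346) and by 1.05 in C57BL/6 (SE 0.13, 0.0183). At steady state Nfkbiz was lower in NOD, with means of 11.60 in NOD and 12.50 in C57BL/6 (a difference of -0.90, SE 0.22, limma adjusted p = 0.0274). In culture it was higher in NOD, by 0.50 after PBS (limma adjusted p = 0.0517) and by 0.36 after LPS (0.0744). With 1 array left out, the PBS call was kept in 5 of 8 fits and the LPS call in 0 of 7. Culture changed Nfkbiz by 0.35 in NOD (0.188) and by -1.05 in C57BL/6 (3.62e-05). Its strain by culture interaction was called (limma adjusted p = 0.00535), also in 15 of 15 fits with 1 array left out.

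Of 9 repressors and inhibitors, all rose in culture in both strains, where 41.6% of all genes were called higher in NOD and 44.6% in C57BL/6. With LPS, 5 rose in NOD, where 1.93% of all genes were called higher, and 2 in C57BL/6, where 0.945% were. With all probe sets of a gene averaged the counts were 6 and 4. The strain by LPS interaction had a limma adjusted p of 1.00 for each of the 9, and the median LPS effect over the 9 was 0.41 in NOD and 0.41 in C57BL/6, so the counts do not show a difference between the strains. Il10, whose product inhibits IL-12 production, rose with LPS by 2.06 in NOD (SE 0.19, limma adjusted p = 0.000789) and by 1.59 in C57BL/6 (SE 0.18, 0.0176). At steady state it was lower in NOD, at a mean of 6.48 in NOD and 8.10 in C57BL/6, a log2 difference of -1.63 (SE 0.24, limma adjusted p = 0.00143). Of the repressors called for LPS, Socs3 was lost in C57BL/6 in 5 of 7 fits with 1 array left out (adjusted p up to 0.236) and in NOD in 6 of 8 (up to 0.218), and Nfkb2 in NOD in 5 of 8 (up to 0.123).

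Among 4 measured cytokines and factors of the lymphocyte response to IL-12 and IL-23, Ifng, which encodes interferon gamma, was lower in NOD in each condition, with a log2 difference of -1.78 after LPS (limma adjusted p = 0.0160), -1.79 after PBS (0.00221) and -1.31 at steady state (0.00250). The mean of Ifng in NOD at steady state was 6.30, near the lower quartile of those arrays, 6.08 to 6.19, and was not tested against background. Tbx21, the transcription factor T-bet of interferon gamma-producing cells, was lower too, with differences of -1.15 after LPS (0.0282), -1.04 after PBS (0.00447) and -1.36 at steady state (1.21e-05). NK cells express both genes, and Ncr1, a defining NK cell marker, had differences of -1.38 after LPS (0.00156), -1.55 after PBS (0.000330) and -1.46 at steady state (1.38e-05). Of the 5 measured NK cell markers, 2 were lower after LPS, 2 after PBS (3 with probe sets averaged) and 4 at steady state. Beside these counts of genes, 4.88%, 5.09% and 7.94% of all probe sets were called lower. With each gene by its brightest probe set, the share was 8.35% at steady state, and it was not counted between strains after culture. The part of NK cells in the levels of Ifng and Tbx21 was not tested. Il18, which acts together with IL-12, was higher in NOD by 0.79 after LPS (0.00398) and 0.76 after PBS (0.00511), and differed by -0.34 at steady state (0.168). Over all 29 genes, 23 rose and 3 fell in culture in NOD and 21 rose and 3 fell in C57BL/6, with medians of 1.23 and 1.18 beside medians over all genes of 0.16 and 0.17. The called shares over all genes were 41.6% higher and 30.0% lower in NOD, and 44.6% higher and 32.3% lower in C57BL/6. Between the strains, 3 genes were higher and 7 lower in NOD at steady state, beside 6.87% and 8.35% of all genes, with a median of -0.23 beside 0.03 over all genes.

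**Figure D5:**
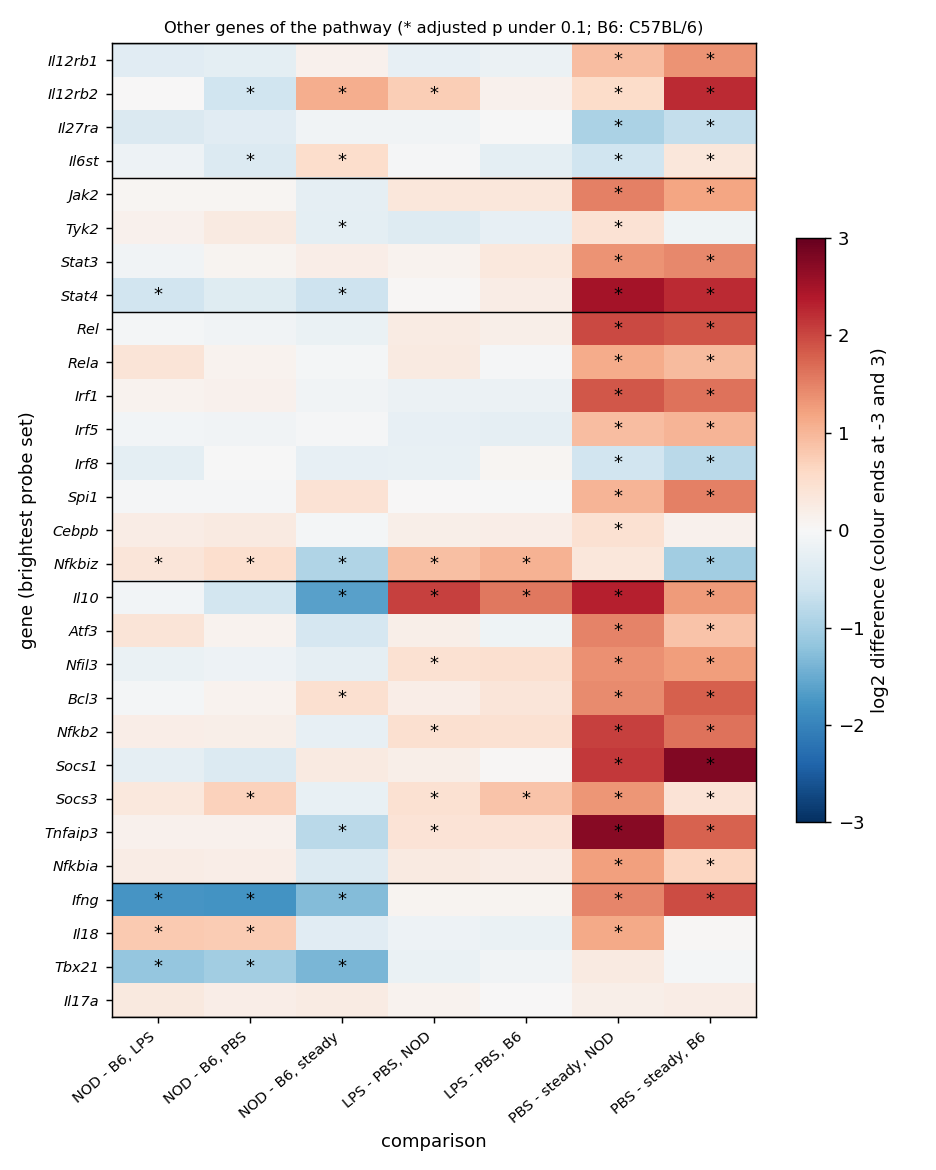
Log2 differences (colour) of 29 other genes of the pathway (vertical axis, by receptor chains, transducers, activators, repressors and factors of the lymphocyte response, parted by lines) in 7 comparisons (horizontal axis), with stars at an adjusted p under 0.1. The culture columns on the right are mostly red, with 23 and 21 genes called higher, beside 41.6% and 44.6% of all genes. Ifng and Tbx21 are lower in NOD in all 3 strain columns.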

How the data were processed

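RNA of sorted pancreas DCs was amplified with the Ovation Pico WTA v2 kit and hybridized to the arrays, and the authors normalized the arrays with RMA, per the labels. The deposited values are log2 expression per probe set, and the base follows from their range, 2.90 to 15.00. The table holds 45101 probe sets, 64 of them AFFX controls that were not tested. Of the 45037 others, 34945 name 1 gene, 932 several and 9160 are not named here. All 22 arrays were used, and groups were taken from the labels.

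The limma package (3.58.1, R 4.3.3) was run separately for each comparison, using only its groups, with Benjamini-Hochberg adjustment over all probe sets and no intensity filter. SE is the moderated standard error. The multivariate permutation test of the methods was not run here. Apart from the subunits, a gene stands for its brightest single-gene probe set. All probe sets of the subunits are named, with the 3 genes most like each subunit. Of each pathway list, up to 3 called genes with the largest change in a comparison were put through the alternatives. Only some of these are named in the text, with others where a count of calls is explained. The subunits and lists were chosen with earlier results of these data known. The code was tested on simulated data. Alternatives were a threshold of 0.05, leaving out the dimmer 50% of probe sets, a common fit of the 22 arrays, a replicate block, centring each array on its median, robust spread with an intensity trend, each array left out in turn and averaging all probe sets of a gene.

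Residuals of arrays with the same number correlated at 0.109 to 0.433 between strains at steady state, 0.137 to 0.320 after PBS, 0.114 to 0.345 after LPS, and at 0.241 to 0.487 in NOD and 0.259 to 0.423 in C57BL/6 between LPS and PBS, so the numbers were taken to pair the arrays, and a fit with the number as a block was run as an alternative. Values are from fits without the block unless it is named. Groups of 3 or 4 arrays limit the precision.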

Additional observations from a re-analysis of the deposited data

Results flagged for a closer look

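The effect of PBS culture on Il12b 1419530_at differed between the strains, by 0.93 on the log2 scale (SE 0.25, limma adjusted p = 0.0411), and the interaction itself was tested. It was not called with arrays of the same number as a block (0.63, adjusted p = 0.353, resting on the 2 numbers shared in each strain), in 1 fit of all 22 arrays (adjusted p = 0.125) or without NOD steady state array 4 (0.86, adjusted p = 0.122). The log2 difference between PBS culture and steady state was -0.38 in NOD and -1.31 in C57BL/6. At steady state the NOD arrays measured 6.09, 6.05 and 6.42, around their lower quartile of 6.08 to 6.19, and whether a larger fall could have been measured there was not tested. The second Il12b probe set, 1449497_at, gave 0.29 (95% interval -0.17 to 0.75) for the same difference. No array stood apart by its gap to the others of its group in the 20 sets of 4 arrays of the subunit probe sets that were tested, which leaves out groups of 3 such as C57BL/6 with LPS, where Il23a measured 6.15 on array 3.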

How the results depend on the processing

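The calls on Il12a and Ebi3 for LPS in both strains, on Il12a, Il23a and Ebi3 for culture in both strains, and on Il12b 1419530_at at steady state and for culture in C57BL/6 held under every alternative in which the probe set was tested, each array left out included. Over the 5 probe sets and 9 comparisons, 242 values under the other alternatives kept direction and call, 8 lost the call and 2 gained it.

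Of the 5 probe sets, 1 was called at steady state at a threshold of 0.05 and in 1 fit of all 22 arrays, Il12b 1419530_at. Without the dimmer 50%, which leaves 1419530_at untested, 1 was called there as well, 1449497_at (adjusted p = 0.0651). After PBS culture 0 were called at 0.05 and in 1 fit, and 0 without the dimmer 50%, where 1419530_at was again not tested. After LPS culture 1, Il23a, was called without the dimmer 50% and in 1 fit. For culture 1 was called in each strain without the dimmer 50%, which leaves out 3 of the 5 probe sets there. The strain by culture interaction had 0 without the dimmer 50% (which leaves out Il12b 1419530_at), in 1 fit, and with a replicate block (0.63, adjusted p = 0.353). Over all probe sets, the threshold of 0.05 gave 2951 calls between strains after LPS, 1013 and 269 for LPS in NOD and C57BL/6, and 2037 for the culture interaction. In 1 fit, LPS gave 2676 in NOD and 2030 in C57BL/6 and its interaction 20. The robust trend gave 1085 for LPS in C57BL/6. Without the dimmer 50%, culture gave 16740 in NOD and 17935 in C57BL/6, and the LPS interaction 6, from fewer probe sets tested. The replicate block gave 6826 between strains after PBS, 4282 for LPS in NOD, 18 for the LPS interaction and 649 for the culture interaction. Culture shares only 2 numbers per strain, so no pairing was taken for it. The block fits of culture and of the culture interaction rest on those 2 numbers, so they also use fewer arrays. The block changed no other call on the 5. The cause of these changes was not tested.

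With 1 array left out, between 1 and 2 of the 5 were called at steady state, 0 and 1 after PBS, and 0 and 1 for the culture interaction. All calls ranged from 4390 to 8915 at steady state, 2837 to 4336 between strains after LPS, 911 to 1672 for LPS in NOD, 84 to 653 for LPS in C57BL/6, 5 to 14 for the LPS interaction and 1955 to 3232 for the culture interaction. Values not called in any of these fits changed sign for Il12a after LPS (-0.057 to 0.223), Il12b 1449497_at for LPS in NOD (-0.023 to 0.214), for culture in C57BL/6 (-0.167 to 0.077) and for the LPS interaction (-0.304 to 0.010), Il23a for LPS in C57BL/6 (-0.773 to 0.027) and the culture interaction (-0.081 to 0.304), and Ebi3 for the LPS interaction (-0.055 to 0.177). Further pathway genes lost the call with some array left out (adjusted p up to 0.310), given here with the fits that kept it. At steady state they were Tnfaip3 (2 of 7), Bcl3 (2 of 7) and Tyk2 (1 of 7). Between strains after LPS they were Nfkbiz (0 of 7) and Stat4 (3 of 7), and after PBS Nfkbiz (5 of 8) and Il6st (2 of 8). For LPS in NOD it was Il12rb2 (2 of 8). For the culture interaction they were Il10 (5 of 15), Tnfaip3 (3 of 15) and Tyk2 (4 of 15).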
